A study of Mus musculus with 15 samples.

Results

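A set of 111 microarray probes was followed through the activation, rest and restimulation of mouse CD4 T cells. The members were chosen from the scanner files: probes that are not controls, that have exactly 1 spot per array, that do not occur in the deposited value table, and whose spot was marked as well above background on 14 of the 15 arrays, all but the first 42 h array. Of the 2500 probes on the array, 309 lie outside the value table and 192 of those have a single spot. Of these 192, 115 met the detection rule, and 4 of the 115 were set aside by number. The detection marks of all 14 arrays chose the members, so a probe that sank to background on any of them is not included.

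RNA came from CD4 T cells of C57/B6 mice aged 6 to 8 weeks, taken from spleen and lymph nodes on CD4-coated magnetic beads. Naive cells without treatment (2 arrays) were compared with cells held on plate-bound antibodies to CD3 and CD28 for 6, 12, 24 and 65 h (2 arrays each) and for 42 h (2 arrays, 1 of them left out here). Cells activated for 65 h, taken off the stimulus and rested in medium with IL-2 until day 7 gave 1 array, and day 7 cells put back on both antibodies for 18 h gave 2. Whether paired arrays stand for separate mice or cultures is not stated in the labels, so p-values here measure array-to-array spread, which may be technical. No probe used here could be tied to a cell type marker, so the labelled cell type was not checked.

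MicroRNAs are short RNAs cut from hairpin precursors that lower the translation and stability of messenger RNAs with matching sites. Signals through the T cell receptor complex, of which CD3 is part, and through the costimulatory receptor CD28 drive naive CD4 T cells out of rest into growth and division. In T cells this is known to lower many microRNAs and to raise a smaller number, and IL-2 sustains activated cells once the stimulus is withdrawn. No table used here pairs the 111 probe IDs with names or sequences, so the probes are given by ID and no sequence is shown.

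Each array held 15665 spots on 1 of 2 slides, with 1 array per group on each slide except at 42 h and day 7, which are represented by slide 1. Between 640 and 950 probes were detected per array on the 14 arrays, no spot was saturated and no member spot was flagged. The array's 75th percentile of signal over the 571 probes detected on all 14 arrays went from 1802 and 2668 on the naive arrays to 509 and 1868 on the restimulated arrays. Values below are log2 levels relative to that percentile, and a difference of 1 is a 2-fold change. The median difference of slide 2 from slide 1 was 0.51 over the members. It was -0.24 over the value table's probes detected on all 14 arrays. Tests below have no term for the slide unless stated, so this difference is part of their spread. Because a member has 1 spot, each value rests on 1 spot per array, and in bulk RNA less RNA per cell and fewer cells that hold it cannot be told apart.

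The members carry consecutive IDs with gaps, and probes next to each other in ID order often had parallel courses. Dividing the ordered members into 8 stretches by the likeness of their courses over the 14 arrays gave runs A to H, used below as a description. These runs were drawn from the values, so no test compares one run with another. Whether the members of a run report the same RNA cannot be read from the data used here. Counts of members are therefore not counts of independent signals. Run A holds 20 members from UCSF033_000118 to UCSF033_000137, run B 7 from UCSF033_000138 to UCSF033_000158, run C 12 from UCSF033_000159 to UCSF033_000178 and run D 20 from UCSF033_000179 to UCSF033_000200. Run E holds 10 members from UCSF033_000202 to UCSF033_000222, run F 21 from UCSF033_000223 to UCSF033_000244, run G 13 from UCSF033_000266 to UCSF033_000287 and run H 8 from UCSF033_000288 to UCSF033_000309. With 7 stretches in place of 8, runs B and C joined, and with 9, run A was divided between UCSF033_000131 and UCSF033_000132, while all other boundaries stayed where they were.

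The courses of a run's members were alike in the median pair, but not in every pair. The median Pearson r between the courses of 2 members of the same run over the 14 arrays was 0.98 in runs C, E and G, 0.96 in run D, 0.92 in run F, 0.91 in run B, 0.84 in run H and 0.80 in run A. The lowest r between 2 members was -0.07 in run A, 0.29 in run F, 0.32 in run C and 0.40 in run D. In runs G, H, B and E it was 0.63, 0.67, 0.82 and 0.82. These arrays share one scaling, and the runs were drawn from the same values. The spots of a run were not neighbours on the slide: those of run G lay between rows 30 and 191 of 191 and columns 10 and 81 of 82.

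Signals of different probes also depend on the probe, so the levels that follow describe spots and do not rank RNA amounts. In runs D, F and H the brightest members stood at the ends of the ID order, and in runs B, C and E the brightest member stood at an end. In run D the highest mean levels were those of UCSF033_000200 (2.75), UCSF033_000179 (2.70) and UCSF033_000199 (2.18), and the lowest that of UCSF033_000193 (-3.45). In run F they were those of UCSF033_000244 (1.76) and UCSF033_000223 (1.58), and the lowest was that of UCSF033_000234 (-5.25). Run G had its 2 brightest members, UCSF033_000287 (2.47) and UCSF033_000286 (1.92), at the upper end alone. The highest mean level of all members was 4.29, that of UCSF033_000137 in run A, and the lowest was -5.97, that of UCSF033_000163 in run C.

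Calls against naive were mostly falls, and they gathered in runs D, E, F and H. Calls are limma's moderated tests at a Benjamini-Hochberg adjusted p under 0.05, fitted to all 882 tested probes. At 6 h and at 12 h no member passed, with 0 and 9 members at an unadjusted p under 0.05, while 0.567% of all tested probes were called lower and 0.113% and 0.794% higher. At 24 h 11 members fell and 0 rose, where 4.42% of all tested probes fell and 7.37% rose. At 42 h 31 members fell and 0 rose, against 10.9% and 15.8% of all tested probes.

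At 65 h 40 members fell and 1 rose, where 15.6% of all tested probes fell and 21.3% rose. At day 7 14 members fell and 0 rose, against 5.44% and 8.05%. After restimulation 37 members fell and 13 rose relative to naive, against 15.2% and 25.9%. As shares of the 111 members, 36.0% had fallen at 65 h and 33.3% after restimulation. These comparisons share the 2 naive arrays and are not independent, and members of a run may repeat the same signal.

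The median member difference from naive was -0.79 at 65 h and -0.81 after restimulation, while the median over all tested probes was 0.59 and 0.37. The array scaling matters here, since the value table's probes as a group moved by a median of 0.71 at 65 h and 0.61 after restimulation. With signals adjusted by the normexp model the median member difference at 65 h turned to 0.23, and scaled to the value table's probes it was -1.13. The overall level of the members against naive therefore depended on the processing, and the members are described below run by run.

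Run G held the members called higher than naive after restimulation, and all 13 of its members passed that test. With parallel courses, these 13 may repeat the same signal. The step from day 7 to restimulation, given further on, was called in no member. Their levels lay 1.80 to 2.47 above naive after 18 h of restimulation, with a median of 2.36. They were the only members called higher there, or 11.7% of the 111 tested, where 25.9% of all tested probes were called higher. Members of runs A, B and C also had mean levels above naive after restimulation, by medians of 0.48, 0.26 and 0.15, with none called. UCSF033_000286 read 1.43 and 1.09 on the naive arrays of slides 1 and 2, 0.96 and 1.29 at 6 h, 0.89 and 1.55 at 12 h, 1.66 and 1.37 at 24 h, and 1.49 on the 42 h array. It then read 2.47 and 2.90 at 65 h, 2.29 at day 7 and 4.24 and 3.21 after restimulation. Both restimulated arrays stood above every other array for this probe, and both 65 h arrays above every earlier one.

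The rise of UCSF033_000286 from naive to restimulation was 2.47 ± 0.39 (SE, n = 2 and 2), or 5.52-fold, with an adjusted p of 0.00217 (limma). Within slide 1 it was 2.81 and within slide 2 it was 2.12. Without a slide term it was also the single member called higher at 65 h, by 1.42 ± 0.39 with an adjusted p of 0.0245 (limma). With a slide term 7 members of run G were called higher at 65 h, where 31.2% of all tested probes were. The 65 h difference of UCSF033_000286 rested on the scaling. In unscaled signals it was -0.021, since the signal was 4861 and 5690 on the naive arrays and 3193 and 8411 at 65 h.

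UCSF033_000285, a dimmer member of run G, had the same shape. It read -3.13 and -2.61 on the naive arrays, -3.12 and -2.47 at 24 h, -3.20 at 42 h, -2.27 and -1.04 at 65 h, -2.27 at day 7 and -0.31 and -0.57 after restimulation. Its restimulated arrays again exceeded all others. The rise over naive was 2.43 ± 0.69, or 5.38-fold (adjusted p = 0.0254, limma), at 2.82 on slide 1 and 2.03 on slide 2. Unscaled, its signal was 206 and 438 on the naive arrays and 411 and 1254 after restimulation, higher on both slides.

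Members of run G differed little in the size of the rise. The smallest was that of UCSF033_000267, 1.80 ± 0.62 (adjusted p = 0.0497, limma), followed by UCSF033_000270 at 2.03 and UCSF033_000266 at 2.14. The other 10 members lay between 2.34 and 2.47. The brightest member, UCSF033_000287, rose by 2.42 ± 0.51 and the dimmest, UCSF033_000280, by 2.42 ± 0.74, although their mean levels stood at 2.47 and -4.30. On slide 1 the 13 rises ran from 2.21 to 2.85 and on slide 2 from 1.38 to 2.12, so the rise was smaller on slide 2 in all 13.

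The first 42 h of run G held no called member, and the slides differed in direction at the start. At 6 h the median was -0.51 on slide 1 and 0.23 on slide 2, and at 12 h it was -0.54 and 0.40. Leaving out 1 array moved the 12 h median between -0.82 (without the slide 2 12 h array) and 0.75 (without the slide 1 12 h array), and the 24 h median between -0.21 (without the slide 1 naive array) and 0.41 (without the slide 2 naive array). Over both slides its median relative to naive was 0.13 at 24 h and -0.38 at 42 h, with 0 of 13 members called at either time. At 65 h it was 1.22, with 12 of 13 members above naive on both 65 h arrays, where 48.2% of all tested probes had their 65 h arrays above both naive arrays. That 65 h median was 0.52 when scaled to all probes and -0.23 in unscaled signals. The day 7 array lies on slide 1, and run G read a median of 0.83 higher on slide 2, so day 7 is best read within slide 1. There its median stood 0.78 above naive and was -0.21 relative to 65 h. Against the means of both slides these values were 0.46 and -0.71, and without the slide 1 65 h array the latter was -1.28. In neither comparison was a member called.

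The step from day 7 to restimulation was the largest of any run, at a median of 1.85, with members between 1.15 and 2.13. All 13 members had both restimulated arrays above the day 7 array, as had 32.1% of all tested probes. Over all runs this held for 41 members, among them all 7 of run B, 10 of run C and 9 of run F. None passed the test, with the smallest adjusted p at 0.513 (limma), and the day 7 group is a single array. Across all 882 probes 0 were called in this step and 78 had an unadjusted p under 0.05, of which 11 were members. On slide 1, where day 7 and restimulation were hybridised together, the differences ran from 1.39 to 2.20.

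Restimulated cells also stood above the 65 h cells in run G, by a median of 1.13 and by 0.95 to 1.22 in single members. In all 13 both restimulated arrays exceeded both 65 h arrays, as in 14.7% of all tested probes, but no member passed (smallest adjusted p 0.338, limma). The median stayed between 0.97 with normexp and 1.40 in unscaled signals. The 2 slides disagreed on the size: the median was 1.82 on slide 1 and 0.44 on slide 2. With a term for the slide the smallest adjusted p was 0.112. Over all members 0 were called in this step, 5 had an unadjusted p under 0.05, and 0.113% of all tested probes were called higher and 1.47% lower.

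Run G kept its direction against naive under each scaling tried, with medians from 1.19 in unscaled signals to 2.40 with all 15 arrays. The number of its members called depended on the setting. It was 13 as described, 13 with a slide term and 13 with normexp, but 6 after quantile normalization, 5 when scaled to the value table's probes, 2 when scaled to all probes, 2 with all 15 arrays, 1 without the filter on dim probes and 0 unscaled. The shares of all tested probes called higher in those settings were 33.8% with the slide term, 21% with normexp, 16.4% after quantile normalization, 17.1%, 12.2%, 9.66%, 3.64% and 2.72% in the order just given. Leaving out either naive array left 2, leaving out the slide 2 restimulated array left 3 and leaving out the slide 1 restimulated array left 2. Set against the median of the value table's probes in the main scaling, the median rise of run G was 1.76. That figure too depended on the scaling. In unscaled signals the value table's median was -0.26, where that of run G was 1.19.

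Run E fell furthest, and all 10 of its members were called lower at 42 h, at 65 h and after restimulation. At 65 h they stood 3.25 to 3.77 below naive, with a median of -3.43. UCSF033_000202 read -0.81 and 0.28 on the naive arrays, -1.09 and 0.11 at 6 h, -1.35 and -0.33 at 12 h, -2.10 and -1.28 at 24 h, -3.86 at 42 h, -4.68 and -3.38 at 65 h, -3.07 at day 7 and -3.71 and -3.09 after restimulation. Naive and 65 h arrays were far apart on both slides, and the 6 h arrays overlapped the naive ones. Its fall at 65 h was -3.77 ± 0.66, or 13.6-fold (adjusted p = 0.00318, limma), at -3.87 on slide 1 and -3.66 on slide 2.

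UCSF033_000206 fell by 3.61 ± 0.32 at 65 h, or 12.2-fold (adjusted p = 0.000239, limma). UCSF033_000217 and UCSF033_000214 had the largest called falls of all members at 24 h, at -1.92 ± 0.41 and -1.77 ± 0.44. They also had the largest called falls at day 7, at -2.26 and -2.42, or 4.78-fold and 5.34-fold. Larger day 7 falls that were not called reached -2.81 in run E and -2.43 in run H. At 42 h UCSF033_000214 stood 15.4-fold below naive, with signals of 399 and 825 on the naive arrays and 8.99 on the 42 h array. After restimulation UCSF033_000202 and UCSF033_000217 were still 8.79-fold and 7.10-fold below naive.

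At day 7 run E stood part of the way back toward naive. The median difference between day 7 and 65 h was 1.30, and in all 10 members the day 7 array stood above both 65 h arrays, as in 27.7% of all tested probes. None of these steps was called (adjusted p of 0.145 for UCSF033_000206, limma), where 0.227% of all tested probes were called higher and 0.454% lower. With a term for the slide all 10 were called, at an adjusted p of 0.0104 for UCSF033_000206, and 3.63% of all tested probes were called higher and 1.93% lower. The brightest member, UCSF033_000222, read 2.39 and 1.90 on the naive arrays, -0.96 and -1.46 at 65 h, 0.60 at day 7 and -0.18 and -1.12 after restimulation.

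On restimulation the median of run E lay below its day 7 level. The difference was -0.62, or -0.72 within slide 1, and in all 10 members both restimulated arrays lay below the day 7 array, as in 24.6% of all tested probes. Relative to 65 h the restimulated arrays were higher by a median of 0.63, at 0.83 on slide 1 and 0.44 on slide 2. No member passed in either step. By a rule of at least a 2-fold fall at 65 h followed by at least a 2-fold gain from 65 h to restimulation, no member of the whole set qualified. With a threshold of 1.5-fold, 7 members did, all of them in run E.

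Runs D and H had their first called falls at 24 h. Their medians lay below naive before that, at -0.16 and -0.23 at 6 h and -0.57 and -0.49 at 12 h, with no member called. Of the 20 members of run D, 2 were called lower at 24 h, 12 at 42 h, 16 at 65 h, 0 at day 7 and 14 after restimulation. Its median stood at -0.90 relative to naive at 24 h and -1.82 at 42 h. It was -1.50 at 65 h, -1.17 in rested day 7 cells and -1.45 after restimulation. With a slide term all 20 were called lower at 24 h, 42 h, 65 h and after restimulation, and 17 at day 7. Over all members that term gave 42 falls at 24 h, 47 at 42 h, 59 at 65 h, 43 at day 7 and 59 after restimulation, where 15.3%, 17.9%, 22.7%, 16.4% and 22.1% of all tested probes were called lower and 12.8%, 23%, 31.2%, 14.1% and 33.8% higher. UCSF033_000200, the brightest of them, read 3.90 and 3.19 on the naive arrays, 3.08 and 2.28 at 24 h, 2.22 and 1.63 at 65 h, 2.94 at day 7 and 2.33 and 1.82 after restimulation.

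Its fall from naive was -1.62 ± 0.41 at 65 h (adjusted p = 0.0161, limma) and -1.48 ± 0.41 after restimulation (adjusted p = 0.0226). The restimulated and 65 h values differed by 0.14 ± 0.41. UCSF033_000180, UCSF033_000181 and UCSF033_000182 stood somewhat lower than the rest of run D at 65 h, at -1.92, -2.01 and -2.07, while the other 17 lay between -1.62 and -1.37. These 3 have adjacent IDs and were singled out after their values were seen.

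All 8 members of run H lay below naive on both arrays at 65 h and after restimulation, as did 27.0% and 27.4% of all tested probes. Of the 8, 7 were called lower at each of these times, 6 at 42 h, 4 at day 7 and 1 at 24 h. UCSF033_000288 read 1.48 and 1.30 on the naive arrays, 0.79 and 0.40 at 24 h, 0.02 at 42 h, -0.44 and -0.75 at 65 h, 0.08 at day 7 and -0.30 and -0.88 after restimulation. The difference from naive was -1.99 ± 0.27 at 65 h (adjusted p = 0.000979, limma) and -1.98 ± 0.27 after restimulation (adjusted p = 0.00128). The level at restimulation and at 65 h thus lay within its spread of each other.

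Run F lay closest to naive among the runs with called falls. The median of its 21 members was -0.91 at 65 h and -0.97 after restimulation, and 7 and 6 of them were called lower. A slide term raised both counts to 21. UCSF033_000226 lay 1.60 ± 0.53 below naive at 65 h and UCSF033_000241 0.75 below. The bright UCSF033_000244 read 2.38 and 2.11 on the naive arrays, 1.39 and 1.20 at 65 h, 1.74 at day 7 and 1.67 and 0.99 after restimulation, a difference from naive of -0.95 ± 0.28 at 65 h (adjusted p = 0.0309, limma). Only 6 members of run F reached a 2-fold fall at 65 h, against all 20 of run D, all 10 of run E and all 8 of run H.

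Within each slide, restimulated cells stood below naive cells in the median of every run with called falls. The median of run D was -1.57 on slide 1 and -1.30 on slide 2. The median of run E was -2.73 on slide 1 and -2.89 on slide 2. The median of run F was -0.87 on slide 1 and -1.08 on slide 2. The median of run H was -1.79 on slide 1 and -2.07 on slide 2. Under every scaling tried and with normexp, all members of runs D, E and H kept a lower level than naive at 65 h and after restimulation, while with normexp members of run F reached 0.48 at 65 h and 0.27 after restimulation. Run C differed in sign between the slides, at 0.55 and -0.25, and run B did not, at 0.29 and 0.25.

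Run A differed from the others in its unscaled signals. UCSF033_000137 gave signals of 27416 and 28326 on the naive arrays, 33185 at its highest on a 12 h array and 16531 at its lowest on a 65 h array, a range of 2.01-fold over the 14 arrays. Of the 20 members, 9 (UCSF033_000118, UCSF033_000119, UCSF033_000128 and UCSF033_000132 to UCSF033_000137) had ranges of 1.91- to 2.18-fold. The other 11 ranged from 3.25-fold for UCSF033_000131 to 6.23-fold for UCSF033_000125. Over all arrays the 75th percentile used for scaling itself ranged from 509 to 2668.

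On the scaled values the mean levels of all 20 members lay below naive at 6 h, with a median difference of -0.085. From 12 h on the mean levels of these 9 members stood above naive. For UCSF033_000137 the difference was 1.78 ± 0.92 at 42 h and 0.84 ± 0.75 after restimulation. Of the 20 members, 0 were called at any time. Their direction followed the scaling: the median of run A after restimulation was 0.48 as scaled, 0.093 when scaled to the value table's probes and -0.69 in unscaled signals. Relative to the value table's probes it was -0.12. The slides also differed, with a median of 0.89 on slide 1 and 0.097 on slide 2.

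Without a slide term, runs B and C had no called member in any comparison. In run B the step from day 7 to restimulation had a median of 0.90, with members between 0.82 and 1.17, and of 0.80 within slide 1. In all 7 both restimulated arrays exceeded the day 7 array, as in 32.1% of all tested probes. UCSF033_000138 read -1.01 and -0.68 on the naive arrays, -0.14 and -0.17 at 12 h, -1.23 and -0.13 at 65 h, -1.31 at day 7 and -0.48 and -0.43 after restimulation. Its 65 h arrays lay on either side of the naive arrays, and restimulated and naive cells differed by 0.39 ± 0.36, with no call.

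Run C stood a median of 0.87 above naive at 65 h. At day 7 the median was -0.17 against both naive arrays and 0.22 within slide 1, which holds the day 7 array, and after restimulation it was 0.15. UCSF033_000159 read 1.31 and 2.08 on the naive arrays, 2.44 and 2.93 at 65 h, 1.59 at day 7 and 1.95 and 1.99 after restimulation. Its difference at 65 h was 0.99 ± 0.48 (adjusted p = 0.143, limma), with an adjusted p of 0.0151 under a slide term. With that term 9 of the 12 members were called higher at 65 h, where 31.2% of all tested probes were. In all 12 both restimulated arrays lay below both 65 h arrays, by a median of 0.70, as in 15.8% of all tested probes. The direction at 65 h depended on the scaling, with a median of 0.17 when scaled to all probes and -0.58 in unscaled signals, while the step from 65 h to restimulation stayed negative in every member, with medians from -0.75 to -0.43 over the scalings. Run C was thus lower on restimulation than at 65 h, where run G was higher, and in neither run did a member pass the test of that step.

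By the size of the 65 h difference alone, 44 members lay at least 2-fold below naive, 11 lay at least 2-fold above and 56 lay between. All 11 above were in run G. The second response, restimulation relative to day 7, was set against the first, 24 h relative to naive. The difference between the 2 responses had a median of 0.51 over all members against 0.087 over all tested probes, and with a slide term 0.29 against 0.17. None of the 111 members and none of the 882 probes passed (limma), with 1 and 74 at an unadjusted p under 0.05, and the stimuli lasted 18 h and 24 h.

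Several members had courses like those of a value table probe, here the probe with the highest r among 693. Over the 14 arrays UCSF033_000180 had an r of 0.999 with UCSF033_000408, UCSF033_000200 one of 0.997 with UCSF033_000403 and UCSF033_000179 one of 0.996 with the same probe. UCSF033_000222 had an r of 0.998 with UCSF033_000475, UCSF033_000244 one of 0.994 with UCSF033_000311 and UCSF033_000287 one of 0.992 with UCSF033_000451.

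In run G 8 of 13 members were most like UCSF033_000452. The highest r with any of 693 value table probes had a median of 0.99 in run D, 0.98 in runs E, F, G and H, 0.91 in run A, 0.83 in run C and 0.80 in run B. Of the members 14.4% had an r over 0.99 with a value table probe, and 23.4% of the value table's probes had one with another of their kind. For UCSF033_000285, the run G member with the largest step from 65 h to restimulation, the 2 most similar of all 882 tested probes over the 8 group means were UCSF033_000268 (r = 0.998) and UCSF033_000282 (r = 0.997), both in run G. These correlations come from arrays that share one scaling and were chosen as the highest, and are given as a description.

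Of the 77 single-spot probes that did not meet the detection rule, 29 were detected on no array, 5 on 13 arrays, 7 on 12 and 7 on 11. The 21 probes between runs F and G were detected on at most 3 arrays, 15 of them on none. Just outside the rule stood UCSF033_000172 in the span of run C and UCSF033_000289, UCSF033_000291, UCSF033_000293 and UCSF033_000298 in the span of run H, each detected on 13 arrays and missing on the slide 1 restimulated array. Just inside it were UCSF033_000234, with a lowest signal of 7.27, and UCSF033_000143, with 8.51. UCSF033_000289 read -3.43 on average in naive cells, -5.48 at 65 h and -5.87 after restimulation. Its neighbour UCSF033_000290, a member, read -2.37, -4.54 and -4.49. In run H 14 of the 22 single-spot probes of the span were not members, so any falls to background in that span are not counted here. The slide 1 restimulated array had the lowest 75th percentile (509) and the fewest detected probes (640) of the 14. Absence on that array alone therefore does not show a fall.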

How the data were processed

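Total RNA was labelled with Cy3 and hybridised to one-colour Agilent arrays, per the labels' protocols. The deposited scanner files hold spot intensity. Their background-corrected signals came from Feature Extraction, whose version reads 10.1.1.1 in the file headers, while the submitters' processing notes name 10.6. A value table of log2 values was also deposited and served only to tell which probes it lists, its normalization being not stated in the labels. Processed signals were averaged over a probe's unflagged spots, scaled to each array's 75th percentile (over 571 probes found on all 14 arrays), floored at the 5th percentile of detected scaled values (no member value was affected) and taken to log2. Detection needed the well-above-background mark on over 50% of a probe's spots. The 882 probes so marked on both arrays of at least 1 group were tested. limma 3.58.1 in R 4.3.3 (lmFit, eBayes, 6 residual degrees of freedom, group as the only term) gave differences, with Benjamini-Hochberg adjustment. The first 42 h array was left out because the rule for the members omits it and earlier processing found that it stands apart. On it 49.6% of the spots were flagged as non-uniform. The 42 h and day 7 groups then have 1 array each and borrow the spread of the other groups. Runs came from order-constrained Ward clustering (scikit-learn 1.9.0). The fit was tested on simulated data with independent noise per probe and array. These held no slide difference and no shared courses, so the test does not cover either.

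The members, runs and lists were chosen with earlier results of these data known. Named probes were the 2 largest called rises and falls per comparison with the same direction on both slides, the extremes of level, the probes next to the detection limit and the probes most like the leading run G member; others, such as the brightest of a run, were picked with values in view. The alternatives were scaling, background model, filter, variance model, slide term, all 15 arrays and each array left out.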

Additional observations from a re-analysis of the deposited data

Results flagged for a closer look

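The first 42 h array, used above only in the fits with all 15 arrays, gave run G a median log2 difference from naive of 2.82, with all 13 members measured, against -0.34 on the other 42 h array in the same scaling. On that array 49.6% of the spots were flagged as non-uniform, and the median spot brightness was 452 where the other arrays had 21.0 to 23.0. Run E read -0.92 there against -3.34, run F 0.34 against -1.07 and run H 0.27 against -1.69. It held usable values for 105 of the 111 members. The part of the array's brightness in these values was not tested.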

How the results depend on the processing

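Each group has at most 2 arrays and each member 1 spot, which limits the precision. Counts are members called. At 12 h against naive, 0 became 1 when scaled to the value table's probes. At 24 h, 11 became 7 when scaled to all probes, 22 when scaled to the value table's probes, 42 with a slide term, 2 without the filter on dim probes, and 0 with all 15 arrays (also with a slide term), unscaled and with normexp. At 42 h, 31 became 10 with all 15 arrays, 18 unscaled, 7 with normexp, 17 without the filter and 53 with a slide term. At 65 h, 41 became 24 with all 15 arrays, 22 unscaled, 23 without the filter and 75 with a slide term. At day 7, 14 became 0 with all 15 arrays, 2 with these and a slide term, 1 unscaled, 2 with normexp, 8 without the filter and 43 with a slide term. After restimulation against naive, 50 became 19 with all 15 arrays, 17 unscaled and 24 without the filter. From 65 h to day 7, 0 became 1 when scaled to the value table's probes, 2 after quantile normalization and 12 with a slide term. The slide term with all 15 arrays was added after seeing the data.

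Leaving out 1 array at a time gave 0 to 14 at 24 h, 14 to 31 at 42 h, 25 to 41 at 65 h, 2 to 17 at day 7, 23 to 51 after restimulation and 0 to 1 from 65 h to day 7. At 24 h the count was 0 without either naive or either 24 h array; at 65 h it was 25 without the slide 2 naive or the slide 1 65 h array. After restimulation it was 27 and 23 without a naive array and 28 without the slide 1 restimulated array. The day 7 count was 8 and 2 without a naive array, and the 42 h count 16 and 14. At 6 h, from day 7 or 65 h to restimulation and between the responses, every setting run gave 0. Of the named differences, UCSF033_000286 at 65 h reversed to -0.021 unscaled. The other named differences kept their direction under all settings run. Across these settings, 64 of their values no longer passed the threshold and 256 stayed on their side of it. With a 1.5-fold in place of a 2-fold threshold, 59 members in place of 44 lay below naive at 65 h. The labels give no replicate numbers; arrays were paired by slide, and the slide term (5 residual degrees of freedom) is that blocked analysis.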
